A study of Mus musculus with 13 samples.

Results

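The Zfp genes are mouse zinc finger protein genes whose symbol is Zfp followed by a number. They were taken as every row of the authors' deposited table whose gene symbol begins that way, which gave 340 of 23904 listed sites and 154 of 9100 gene symbols. The table compares liver DNA methylation between 7 mice on a low fat/low sucrose diet (LF/LS) and 6 on a diet that was high fat/high sucrose (HF/HS). It was measured by bisulfite sequencing of captured DNA, where conversion makes unmethylated cytosine read as thymine. Strain, age and sex were not given in the sources used here, and diet was the only stated difference between the groups. Sample titles begin with G1 for 7 mice and G2 for 6, a prefix the labels do not explain. Each site carries an average methylation per diet, a methylation difference in percentage points (HF/HS minus LF/LS), a p-value and a q-value, all of them the authors' own. The largest q in the table is 0.01 and the smallest absolute difference 5.003 points, so every member site had already passed the authors' limits. Values per mouse and read depth were not analysed here, so no spread between mice can be given and the precision of each average is unknown. Whole liver was used, so a change within a cell type and a change in the mix of cell types cannot be told apart.

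Most Zfp proteins bind DNA through tandem C2H2 fingers, in which a pair of cysteines and a pair of histidines hold a zinc ion. Many also carry a KRAB domain, which recruits the corepressor TRIM28 and with it enzymes that lay down repressive histone marks and DNA methylation, above all at transposable elements and imprinted genes. The symbol does not guarantee this structure: Zfp36 and its relatives have CCCH fingers and bind AU-rich elements in mRNA. KRAB zinc finger genes lie in tandem clusters of similar copies, so a read from one copy may be placed on another, and single sites in such clusters are uncertain.

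The letters around a start show what kind of site the promoter results rest on. The promoter flag marks sites within about 1 kb of a listed start, and 78 sites at 56 Zfp genes carried it. RefSeq promoter windows for build GRCm38.p6 (250 bases before the start and 50 after it) were found for 117 of the 154 genes, with 149 windows in all. The Zfp windows held a median of 16 CG dinucleotides, the methylatable unit, against 13 in all windows of protein-coding genes and 7 in all windows. The GC box GGGCGG, searched on both strands, was in 43.6% of Zfp windows and 46.2% of protein-coding windows. The box CCAAT was in 42.3% and 38.2%, and TATAAA in 8.05% and 12.6%, again on either strand. Of 11 promoter sites whose listed distance fell inside such a window, 6 had a CG at exactly that distance from the RefSeq start in at least 1 window of the gene. The other 5 did not, and whether the authors' start and the RefSeq start are the same base was not tested. The 250 bases before the start are printed 5′ to 3′ for the 5 genes with such a match, all of which had a rise at it, with capitals on the CG at the listed distance. Their places in GRCm38.p6 are chr2:170142676-170142925 on the - strand for Zfp217 and, on the + strand, chr7:39517516-39517765 for Zfp619, chr7:43606919-43607168 for Zfp819, chr8:71908356-71908605 for Zfp882 and chr8:4612920-4613169 for Zfp958. Zfp217 has 2 windows and Zfp958 has 3, of which only the printed one has a CG at the listed distance.
Zfp217: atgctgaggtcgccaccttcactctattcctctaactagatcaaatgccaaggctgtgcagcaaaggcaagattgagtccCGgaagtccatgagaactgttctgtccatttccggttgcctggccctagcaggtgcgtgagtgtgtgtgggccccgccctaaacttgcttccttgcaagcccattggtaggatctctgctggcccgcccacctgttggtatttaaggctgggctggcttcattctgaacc
Zfp619: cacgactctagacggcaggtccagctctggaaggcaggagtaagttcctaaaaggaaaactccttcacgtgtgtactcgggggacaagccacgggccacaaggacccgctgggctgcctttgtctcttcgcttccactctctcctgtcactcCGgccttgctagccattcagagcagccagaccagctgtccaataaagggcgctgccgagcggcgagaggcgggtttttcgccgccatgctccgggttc
Zfp819: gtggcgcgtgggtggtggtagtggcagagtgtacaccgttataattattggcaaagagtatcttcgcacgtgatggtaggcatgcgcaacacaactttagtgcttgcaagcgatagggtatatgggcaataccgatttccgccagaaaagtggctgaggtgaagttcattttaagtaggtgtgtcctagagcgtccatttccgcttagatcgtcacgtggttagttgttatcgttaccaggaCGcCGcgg
Zfp882: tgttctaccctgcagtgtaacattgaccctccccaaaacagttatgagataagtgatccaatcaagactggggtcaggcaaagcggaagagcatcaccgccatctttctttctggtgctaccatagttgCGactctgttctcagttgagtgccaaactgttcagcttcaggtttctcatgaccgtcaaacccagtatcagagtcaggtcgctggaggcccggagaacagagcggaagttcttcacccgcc
Zfp958: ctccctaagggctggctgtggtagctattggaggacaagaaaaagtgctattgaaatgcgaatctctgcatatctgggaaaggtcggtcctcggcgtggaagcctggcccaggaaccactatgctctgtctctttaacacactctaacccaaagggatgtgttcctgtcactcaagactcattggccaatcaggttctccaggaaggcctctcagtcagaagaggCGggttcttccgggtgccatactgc

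At 4 of these starts the sites were weakly methylated in LF/LS mice, and at the fifth, Zfp217, the site was highly methylated. At Zfp819, which encodes a KRAB zinc finger protein, the site at -8 bp from the listed start averaged 0% in LF/LS and 9.05% in HF/HS in the authors' deposited table, and the site at -5 bp averaged 0.5102 and 11.5%. For Zfp882 the authors' deposited table lists 5.68% and 14.9% at -121 bp. At Zfp619 the site at -98 bp averaged 0% and 8.08% in the authors' deposited table, and at Zfp958 the site at -25 bp averaged 0% and 6.00%. At Zfp217, an oncogene of epithelial cancers, the site at -170 bp averaged 94.2% in LF/LS and 100% in HF/HS in the authors' deposited table. All 6 sites were higher in HF/HS, with listed differences under 10 points, against 65.2% higher among all promoter sites in the table. Where a window held no CG at the listed distance, Zfp189, Zfp605 and Zfp639 had falls and Zfp13 and Zfp536 had rises. The 5 printed stretches hold 6, 16, 17, 8 and 6 CG in the order printed.

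Zfp sites moved in both directions, in nearly the proportion of the whole table. HF/HS was higher at 201 Zfp sites (59.1%) in the authors' deposited table and lower at 139, against 57.6% higher among all listed sites. The median Zfp difference was 7.57 points, against 7.41 over all sites. Rises had a median of 10.96 points and falls of -10.6 points at Zfp genes, against 11.7 and -11.6 points over all listed sites. An absolute difference of at least 20 points was reached by 21 Zfp sites (6.18%, against 6.66% of all sites), 16 of them rises. At least 10 points was reached by 203 sites, which is 59.7% against 65.0% of all sites. Of 397 protein-coding RefSeq genes with such a symbol, 158 (39.8%) had a listed site under their current name, against 39.4% of all protein-coding genes. How many Zfp sites were tested by the authors is not given in the sources used here, so no set test was made.

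The genes were uneven in how many sites they had and in how far those agreed. A single site was listed for 77 genes, 2 sites for 35 and 3 or more for 42. By direction, 68 genes had only higher sites, 48 only lower sites and 38 both. One-directional genes thus made up 75.3%, against 71.7% of all genes in the table, but a gene with 1 site cannot be mixed. With 2 or more sites the shares were 50.6 and 45.8%. Of the 42 Zfp genes with 3 or more sites, 12 had only higher sites, 3 only lower ones and 27 were mixed. One-directional genes made up 35.7% of those 42, against 33.7% of all genes in the table with 3 or more sites. All 48 pairs of adjacent Zfp sites at most 100 bp apart shared a direction. The share of such pairs among all listed sites was not counted, so this agreement cannot be called particular to Zfp genes. Such pairs can be covered by the same reads, so sites joined within 1000 bp were also counted as clusters. The 340 sites formed 265 clusters, 151 higher and 114 lower (57.0% higher, against 55.6% of all 18409 clusters).

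**Figure D1:**
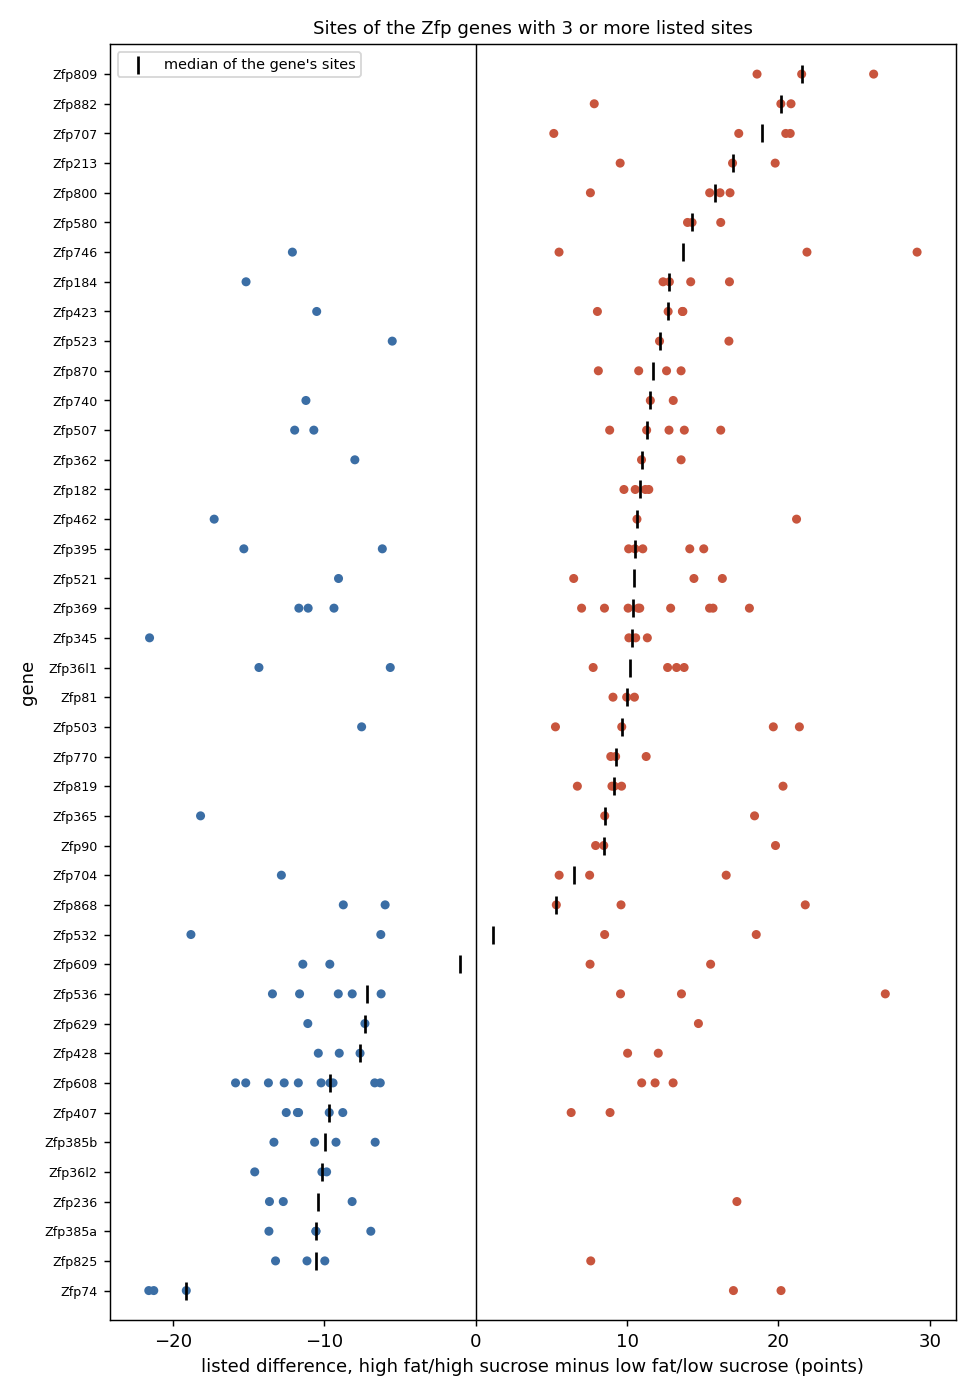
Listed methylation difference (percentage points, x axis) at each site of the 42 Zfp genes with 3 or more listed sites (y axis, ordered by median), with rises in red, falls in blue and a black mark at each gene's median. Zfp809 is at the top with 3 rises, Zfp74 at the bottom with 3 falls beside 2 rises, and 27 of the 42 genes have points on both sides of 0.

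At several genes the sites that all moved one way were close together, and near neighbours may share reads. Of the 12 genes with 3 or more sites, all higher, 7 had them in a single cluster (Zfp819, Zfp182, Zfp213, Zfp580, Zfp809, Zfp81 and Zfp882), 3 in 2 clusters (Zfp707, Zfp770 and Zfp90) and 2 in 4 clusters (Zfp800 and Zfp870). At Zfp800 the sites at 1228 and 52545 bp from a shared listed start carry an intron flag. The other 2, at 46634 and 58437 bp from a different listed start, carry no gene flag. The authors' deposited table gives the Zfp800 averages as 35.8, 53.05, 87.9 and 55.97% in LF/LS and 51.5, 68.4, 94.9 and 70.5% in HF/HS, so each separate site was higher. Zfp870 averaged 26.03% in LF/LS and 39.7% in HF/HS at its promoter site and 35.00 and 45.9% in an intron at 1214 bp, in the authors' deposited table. Its other 2 sites, more than 10 kb on, were higher by 10.8 and 8.10 points in the authors' deposited table. The 3 exon sites of Zfp580, which lie from 2044 to 2121 bp in a shore, averaged 26.3, 18.96 and 19.3% in LF/LS and 40.7, 35.3 and 33.9% in HF/HS in the authors' deposited table. About 23 kb from its start, Zfp213 averaged 48.9, 13.1 and 18.6% in LF/LS and 66.8, 23.3 and 34.00% in HF/HS, and Zfp81 had rises of 9.07, 10.5 and 9.97 points in its promoter, in the authors' deposited table. The 3 genes with only lower sites, Zfp385a, Zfp385b and Zfp36l2, had theirs in 2, 2 and 3 clusters.

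Zfp809, which encodes a KRAB zinc finger repressor, had the highest median difference (21.5 points) among the 42 Zfp genes with 3 or more listed sites. ZFP809 recognises the primer binding site of murine leukaemia viruses and starts their silencing in early embryos. Its 3 sites lay in an intron on chromosome 9 from 22034306 to 22034352 (mm9), all further than 4 kb into the gene by listed distance. In the authors' deposited table they averaged 17.01, 20.3 and 14.02% in LF/LS and 39.8, 39.8 and 38.2% in HF/HS. The listed differences at Zfp809 were 21.5, 18.6 and 26.3 points, with q of 1.59e-06 at the last of them, in the authors' deposited table. The sites fall within 100 bp of each other, so they are close to a single observation. Zfp568, which represses a placental transcript of Igf2, had 1 site in an island shore at -1835 bp that averaged 83.9 and 93.9% in the authors' deposited table. The list of imprinting and retroelement repressors held 6 genes, of which 2 (33.3%), Zfp568 and Zfp809, had listed sites, against 39.4% of all protein-coding genes. Their 4 sites, which form 2 clusters, were all higher, against 57.6% of all listed sites, and Zfp57, Zfp445, Zfp708 and Zfp932 had none in the table.

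Zfp819 and Zfp182 were higher at every listed site of their promoter. Beside its sites at the start, Zfp819 had 3 further sites from 337 to 469 bp after it, all with an intron flag. The authors' deposited table gives those Zfp819 sites as 11.3, 7.75 and 30.7% in LF/LS and 17.9, 14.9 and 44.6% in HF/HS. Zfp182, on the X chromosome, had 4 sites from -4 to 57 bp from its start. They averaged 2.298, 1.53, 2.704 and 1.71% in LF/LS and 10.6, 11.6, 13.5 and 11.9% in HF/HS in the authors' deposited table. All 5 Zfp sites on X were higher (4 at Zfp182 and 1 at Zfp92), against 48.2% of all listed X sites. Zfp882 had 2 further promoter sites, at 681 and 691 bp, that went from 38.2 and 27.4% to 59.6 and 46.7% in the authors' deposited table.

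Of the 78 Zfp promoter sites 56 (71.8%) were higher in HF/HS, against 65.2% of all promoter sites in the table. The difference between these shares was not tested, since every site comes from the same 13 mice. Most Zfp promoter sites were weakly methylated: 46 of the 78, at 36 genes, had a mean of the 2 diet averages under 20%, and 32 of these 46 (69.6%) were higher, against 71.2% of all promoter sites at such levels. Of the other 32 promoter sites 24 were higher. At 5 promoter sites the LF/LS average was listed as 0 (Zfp248, Zfp598, Zfp619, Zfp819 and Zfp958). The reverse, an average listed as 0 in HF/HS, was found at 7 promoter sites (Zfp189, Zfp319, Zfp334, Zfp536, Zfp597, Zfp599 and Zfp605). With no read counts, how much methylation a listed 0 allows is unknown.

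**Figure D2:**
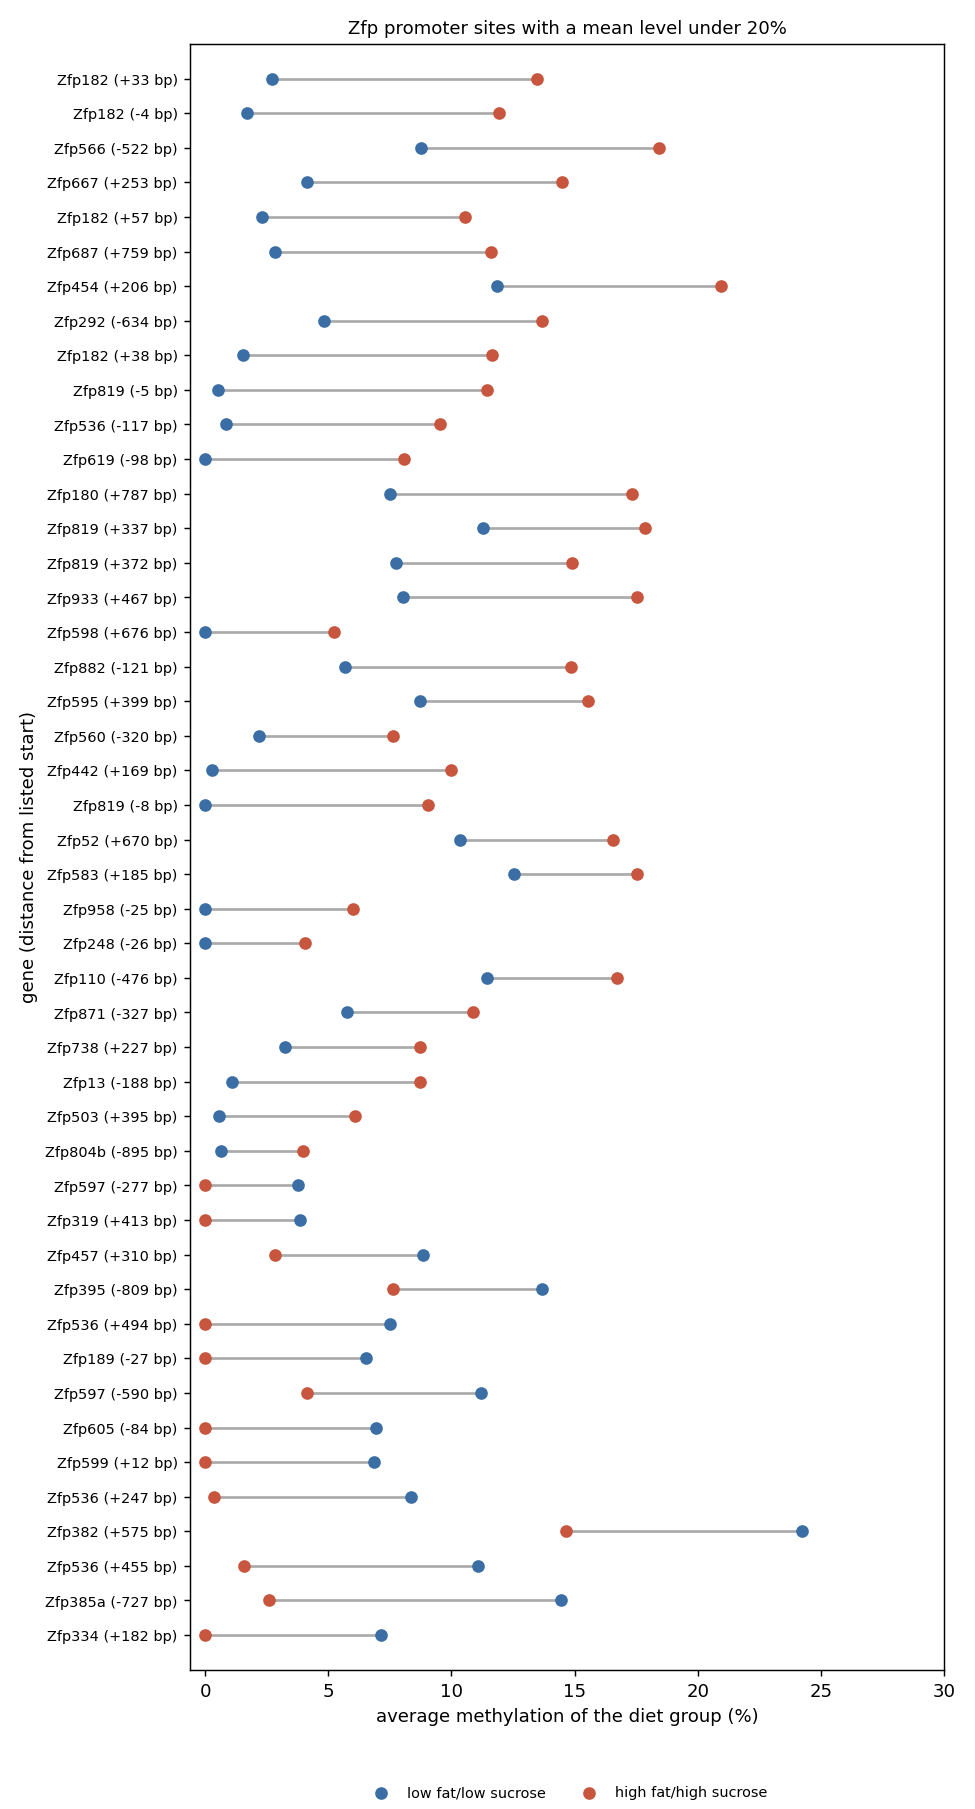
Average methylation (%, x axis, which ends at 30%) in LF/LS (blue) and HF/HS (red) at the 46 Zfp promoter sites with a mean level under 20%, 1 row per site (y axis, with distance from the listed start), ordered by listed difference. The 32 rows in which red lies to the right are rises, and 7 of the 14 falls end at 0% in HF/HS.

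The promoters with the largest differences included rises and falls. The largest promoter rise was at Zfp536, a gene known as a repressor of neuronal differentiation, on chromosome 7 at 38354137, a shore and exon site that averaged 46.9% in LF/LS and 73.7% in HF/HS in the authors' deposited table. Other promoter sites of Zfp536 lay some 200 kb away, by their distances at 2 further listed starts within 1 kb of each other, and were weakly methylated. At one start the authors' deposited table lists falls from 7.51, 11.1 and 8.36% to 0, 1.596 and 0.362%, and at -117 bp from the other a rise from 0.8403 to 9.55%. Zfp783 averaged 39.5 and 60.9% at an island site in its promoter, and Zfp365 37.4 and 55.9% at a shore site, in the authors' deposited table. Falls of at least 15 points at a promoter were listed for 5 genes in the authors' deposited table, with differences of -18.8 at Zfp532, -18.2 at Zfp202, -16.8 at Zfp414, -16.0 at Zfp229 and -15.1 points at Zfp219. Zfp202 is the mouse counterpart of a repressor of lipoprotein and lipid metabolism genes, and its only site, in an island shore, averaged 63.2% in LF/LS and 43.9% in HF/HS in the authors' deposited table.

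CpG islands, the CG-rich stretches that cover many promoters, held Zfp sites of both directions. Of 27 island sites at 22 Zfp genes 13 were higher (48.1%), against 67.3% of all island sites. Of the 17 island sites with a mean level under 20%, 7 were higher, against 65.9% of all island sites at that level, and of the other 10, 6 were higher. This difference was not tested either, and 27 sites make the Zfp share imprecise. In island shores, 58 of 86 Zfp sites (67.4%) were higher, against 65.7% of all. Exon sites were higher in 33 of 51 cases (64.7%, against 62.1%), intron sites in 79 of 144 (54.9%, against 55.6%) and sites with no promoter, exon or intron flag in 74 of 128 (57.8%, against 57.6%).

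The promoter flag was carried by 22.9% of all Zfp sites and 17.5% of all listed sites. Of the 16 Zfp rises of at least 20 points, 11 lay outside promoters, so large rises were not particular to sites away from promoters. The largest of all was named for Zfp746, which encodes PARIS, a KRAB zinc finger repressor of the mitochondrial biogenesis coactivator PGC-1α. That site, on chromosome 6 at 48122914, averaged 44.4% in LF/LS and 74.5% in HF/HS in the authors' deposited table. Its listed difference was 29.2 points there, with q of 3.30e-05. It lay at -86323 bp from the Zfp746 start but carries an intron flag, so it need not belong to Zfp746, and the site 2 bp from it went from 43.2 to 67.8%. Close to the Zfp746 start, at 1209 bp, the authors' deposited table lists a fall from 32.2 to 20.5%. At Zfp579 an island site in an exon averaged 62.6% in LF/LS and 89.95% in HF/HS in the authors' deposited table. Zfp868 and Zfp462 had rises at 75670 and 57569 bp, from 54.2 and 23.8% to 76.04 and 45.00% in the authors' deposited table. At Zfp707, 3 exon sites in a shore, from 6074 to 6133 bp, averaged 15.8, 12.7 and 15.3% and rose to 36.5, 32.3 and 35.4% in the authors' deposited table.

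Most of the largest falls started from higher levels than the largest rises, but Zfp938 and Zfp69 averaged 46.9 and 29.8% in LF/LS. These sites were picked by size of difference. A large fall cannot start at a very low level, nor a large rise at a very high one. Zfp74 had 3 intron sites within 200 bp on chromosome 7 from 30726620 to 30726735, which averaged 86.6, 92.4 and 87.8% in LF/LS and 63.6, 71.99 and 73.6% in HF/HS in the authors' deposited table. At -11411 bp, in an island and exon, another site named for Zfp74 went the other way in the authors' deposited table, from 32.3 to 53.8%. Zfp345 averaged 66.4 and 43.2% at its island site, whereas its other 3 sites, at -40397 to -40647 bp, were higher. Exon sites of Zfp358 and Zfp512 fell by 20.5 and 19.3 points in the authors' deposited table, the first from 70.5 to 48.1% and the second from 87.7 to 68.4%. Differences at Zfp710, Zfp938, Zfp827, Zfp69, Zfp366 and Zfp839 ran from -20.4 to -18.9 points in the authors' deposited table, and 4 of these 6 sites were 9555 bp or more upstream of the listed start.

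**Figure D3:**
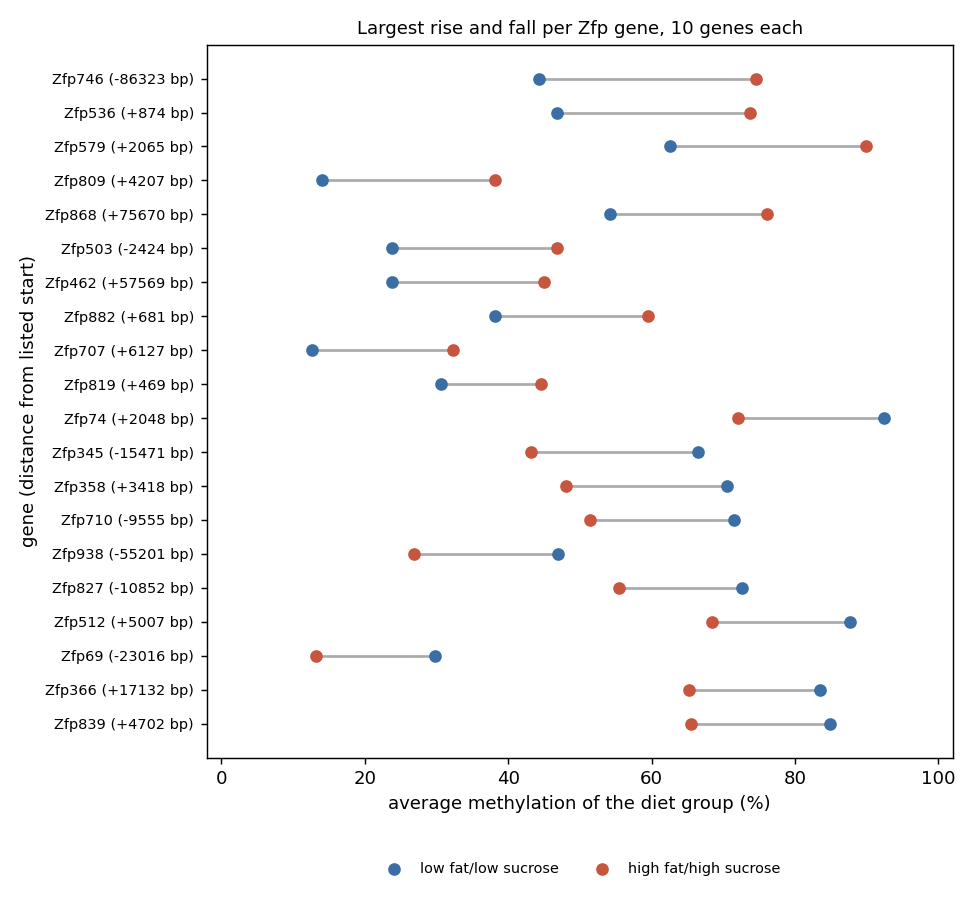
Average methylation (%, x axis) in LF/LS (blue) and HF/HS (red) at the site of largest rise for 10 Zfp genes and at the site of largest fall for 10 others, with the distance from the listed start beside each symbol (y axis). Rises run from Zfp746 at the top to Zfp819, and falls from Zfp74 to Zfp839. Low fat/low sucrose averages of 8 of the 10 falling sites are above 60%, and those of 9 of the 10 rising sites are below it.

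Genes that act in adipocytes and metabolism had sites in both directions. Of 11 such genes 7 had listed sites (39.4% of all protein-coding genes had one), 12 higher and 10 lower (54.5% higher, against 57.6% of all listed sites). Zfp423, which marks and commits preadipocytes, had 4 of 5 sites higher. In the authors' deposited table an intron site of Zfp423 on chromosome 8 at 90411938 averaged 85.02% in LF/LS and 98.1% in HF/HS, and a site at -16227 bp averaged 90.3 and 79.6%. Zfp521, which opposes adipogenesis, had 3 of 4 sites higher, with averages of 42.7 and 57.6% at the largest rise in the authors' deposited table. Both sites of Zfp516, a regulator of brown fat genes, were higher, by 7.87 and 9.08 points in the authors' deposited table. Zfp407 had 5 of 7 sites lower, all in introns. Zfp69, a gene linked to diabetes in obese mice, had 1 site at -23016 bp that averaged 29.8% in LF/LS and 13.2% in HF/HS in the authors' deposited table. That site carries an intron flag although it lies upstream of the listed start, so it need not belong to Zfp69. Zfp664 had 1 site in each direction, Zfp202 had the promoter fall given above, and Zfp467, Zfp638, Zfp30 and Zfp719 had no listed site.

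The mRNA-binding CCCH members had 5 sites higher and 5 lower (50% higher, against 57.6% of all listed sites), at 3 of the 4 genes. Zfp36 encodes tristetraprolin, which speeds the decay of cytokine mRNAs, and its 1 site, in a shore and exon, had averages of 4.83% in LF/LS and 16% in HF/HS in the authors' deposited table. Zfp36l1 had 4 of 6 sites higher, with rises of 12.7, 13.3 and 13.8 points at 33329, 33315 and 9643 bp in the authors' deposited table. Its largest difference was a fall, from 77.5% in LF/LS to 61.5% in HF/HS at 66132 bp. The other lower site, in an island at -3003 bp, averaged 5.66 and 0%. All 3 sites of Zfp36l2 were lower: the authors' deposited table lists 75.1, 71.02 and 17.7% in LF/LS and 65.2, 57.6 and 9.54% in HF/HS. Whether Zfp36l1 and Zfp36l2 differ beyond the spread between mice was not tested.

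Pluripotency and developmental genes, and growth regulators, were also split. All 7 genes of the first list were in the table, with 6 sites higher and 5 lower (54.5% higher). The shares over the whole table are 39.4% of protein-coding genes with a listed site and 57.6% of listed sites higher. The pluripotency list includes Zfp42 (Rex1, a marker of pluripotent cells), where an exon site averaged 78.5% in LF/LS and 92.6% in HF/HS in the authors' deposited table, and Zfp706, where a site at 37372 bp averaged 95.6 and 80.4%. Zfp296 and Zfp322a each had 1 higher site, with differences of 11.0 and 6.75 points, and Zfp281, a pluripotency factor, 1 lower site (-7.96 points), in the authors' deposited table. Zfp462 had 2 of 3 sites higher and Zfp217 1 of 2. Of 17 haematopoietic and growth regulators 10 had sites under their Zfp symbol, 15 higher and 16 lower (48.4% higher). With Zfp64, whose 2 lower sites are listed by transcript without a symbol, these become 11 genes with 15 higher and 18 lower sites (45.5%). The haematopoietic list shares Zfp217 and Zfp36l2 with other lists. Zfp148 and Zfp110 each had 1 higher site, with differences of 10.5 and 5.86 points, and Zfp106 and Zfp710 each 1 lower site, with differences of -8.44 and -20.4 points, in the authors' deposited table. Zfp609, a cofactor of the cohesin loader in neural progenitors, had 2 sites in each direction, and Zfp219 had 1 in each. Zfp385a, a partner of p53, had all 4 sites lower and so did its paralogue Zfp385b. The authors' deposited table lists 14.4 and 2.59% at the Zfp385a promoter site and 77.5 and 63.2% at the Zfp385b site with the largest difference. Zfp503 and Zfp703 encode paralogous developmental repressors, and both had sites in each direction. Zfp503 had 4 of 5 sites higher, with averages of 23.8 and 46.8% at -2424 bp, while an island site at 1136 bp averaged 6.71 and 0% in the authors' deposited table. The island and exon site of Zfp703 fell from 26.6 to 11.9%, and its other site, at -351375 bp, averaged 78.8 and 89.6%, in the authors' deposited table.

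The genes with the most sites were spread over long distances. Zfp608 had 13 sites in 10 clusters on chromosome 18, 10 of them lower. Distances at Zfp608 were measured from more than 1 listed start. An adjacent run of 3 intron sites, at about -9 kb from the start listed for them, averaged 76.3, 83.5 and 84.9% in LF/LS. In HF/HS the run averaged 66.95, 69.8 and 76.4% in the authors' deposited table. By position this run lies downstream of another listed start of Zfp608. The farthest Zfp608 site lay at -557465 bp from its listed start. Zfp369 had 12 sites, 9 of them higher, and 4 shore sites near -20 kb averaged 26.9, 23.8, 28.02 and 33.3% before rising to 41.01, 31.7, 42.5 and 53.1% in the authors' deposited table. No Zfp369 site was closer than 20161 bp to the start. Zfp395 and Zfp507 each had 5 of 7 sites higher. At Zfp395 a run of 4 intron sites from 3439 to 3543 bp rose by 15.1, 10.5, 11.0 and 10.1 points in the authors' deposited table.

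Zfp sites were unevenly spread over chromosomes. Chromosome 7 held 67 of the 340 sites (19.7%, against 5.71% of all listed sites), but also 34 of the 154 listed Zfp genes. Of those 67 sites 46 (68.7%) were higher, against 58.3% of all sites on that chromosome. On chromosome 18, 13 of 37 Zfp sites (35.1%) were higher, against 60.9% of all sites there. Those 37 sites belong to 8 genes, and without Zfp608 10 of 24 (41.7%) were higher. All 37 sites, Zfp608 included, had a median LF/LS average of 74.4%, against 48.2% for all sites on that chromosome.

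Direction went with the level of methylation at Zfp sites and in the table as a whole. Of the 64 Zfp sites with a mean of the 2 averages of 20 to 40%, 53 (82.8%) were higher, and of the 71 at 60 to 80%, 26 (36.6%) were. The corresponding shares over all listed sites were 85.0 and 32.5%. At 40 to 60% 25 of 34 Zfp sites (73.5%) were higher, against 59.5%, and at 80 to 100% 39 of 86 (45.3%), against 35.7%. Below 20% 58 of 85 (68.2%) were higher, against 74.9%. With the shares of all listed sites in steps of 10 points of mean level, the Zfp sites would be higher in 56.4% of cases, beside the 59.1% listed. The part of level in the gene and chromosome counts above was not tested.

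**Figure D4:**
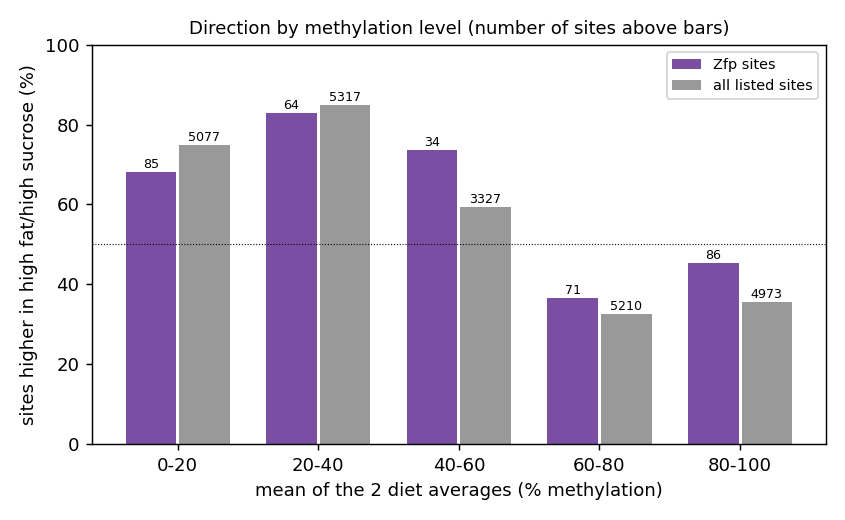
Share of sites higher in HF/HS (%, y axis) by mean of the 2 diet averages (% methylation, x axis) for Zfp sites (purple) and all listed sites, Zfp included (grey), with the number of sites above each bar and a dotted line at 50%. Both series are highest at 20 to 40% (82.8 and 85.0%) and lie below the line from 60% upwards.

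The symbol of a site does not place it in the gene. The median distance of a Zfp site from its listed start was 6623 bp, against 8900 bp over all sites. Of the Zfp sites 200 lay within 10000 bp, where 117 (58.5%) were higher, and 52 lay more than 50000 bp away. An intron flag was carried by 25 sites upstream of their own listed start, so these lie in an intron of some other transcript. That transcript can be of the same gene. Sites of Zfp608, Zfp532 and Zfp385b among them lie downstream of another listed start of their own gene.

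Genes of the corepressor machinery that KRAB zinc finger proteins recruit had sites in both directions. Of 21 such genes 10 had listed sites (47.6%, against 39.4% of all protein-coding genes), 7 higher and 11 lower (38.9% higher, against 57.6% of all listed sites). Trim28, the corepressor itself, had 2 shore sites at -1268 and -1218 bp, which averaged 81.5 and 48.7% in LF/LS and 66.1 and 37.0% in HF/HS in the authors' deposited table. Single sites near the maintenance methyltransferase gene Dnmt1 and the de novo methyltransferase gene Dnmt3b had differences of -14.1 and -13.7 points, and Dnmt3a had 2 sites in each direction, in the authors' deposited table. Differences were 8.40, -11.4 and 13.2 points at Atf7ip, 8.90, -11.8 and 14.6 at Chd4 and 6.02 at Atrx. At Chd3, Hdac2 and Morc3 they were -6.99, -9.42 and -8.34 points, all in the authors' deposited table. Setdb1, which encodes the histone methyltransferase of the complex, and the heterochromatin protein genes Cbx1, Cbx3 and Cbx5 had no listed site.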

How the data were processed

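Liver DNA of 13 mice was captured with an Agilent methylation kit, per the labels' protocols. CASAVA 1.8, Trim Galore, Bismark, methylKit and build mm9 are named in the submitters' processing notes, without settings. The deposited table gives, per the file headers, the percent methylation average of each diet, a p-value and q-value, and a difference in points. The authors' test, weighting and depth filter are not known here. The sign of the difference matched HF/HS minus LF/LS at every site, and at Zfp sites its median gap to the difference of averages was 0.885 points.

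Members and gene lists were chosen with earlier results of these data known. Named genes are the top 10 by rise and by fall, the top 8 by sites, those with a promoter difference of at least 15 points, and 5 lists of members. Genes named for a promoter average of 0, a printed promoter, the X chromosome, sites all in one direction, or as a paralogue (Zfp385b, Zfp503 and Zfp703) were chosen after their values were seen. Counts and medians used Python 3.11.15 and pandas 2.3.3, and the cluster step was tested on simulated data. No test was run, since the table holds no values per mouse. Chromosome 20 was read as X, and all 154 genes lay on the chromosome RefSeq (GRCm38.p6) gives. Protein sequences were not used here.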

Additional observations from a re-analysis of the deposited data

How the results depend on the processing

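The share of Zfp sites higher in HF/HS was 59.1% and lay between 57.9 and 61.5% with sites within 10000 bp of a start, at least 10 points, q under 0.001, each gene counted once, the difference of averages, current symbols, without X, without CCCH members, without Zfp608, or at mean levels of 20 to 80%. It was 71.8% in promoters (78 sites) and, on the other side of 50%, 48.1% in CpG islands (27 sites); the cause was not tested. The limits on mean level and islands were chosen after seeing the data. Listed Zfp sites numbered 203 at 10 points or more and 85 at q under 0.001, against 340, as stricter limits keep fewer. The median difference, the share over clusters and the number of genes moved by under 1.5 times. Leaving out mice and models per site were not run, since values per mouse were not analysed here. No paired analysis was possible because the table holds only diet averages. Read depth limits every average by an unknown amount.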

Other observations

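Some zinc finger genes stand in the authors' deposited table under older names or with a transcript and no symbol. By RefSeq synonyms and transcripts, 10 further sites at 6 genes now have a Zfp symbol, and 6 of them were higher in HF/HS. The largest difference among them was at Zfp992, listed as Gm13251, where an island site at -5109 bp on chromosome 4 averaged 31.5% in LF/LS and 55.6% in HF/HS in the authors' deposited table. Zfp64, whose transcript is listed without a symbol, had 2 intron sites, both lower in the authors' deposited table, by -8.90 and -11.8 points. Conversely Zfp259, with 2 sites, is now called Zpr1.

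Zinc finger genes of other symbol families also had listed sites, but the sizes of these families were not counted. The Zbtb genes, which pair zinc fingers with a BTB domain, had 64 sites at 23 genes. Of these sites 34 were higher (53.1%, against 57.6% of all listed sites). Zbtb48 had all 7 sites higher, and Zbtb7a, a regulator of blood cell differentiation, had all 3 lower, from 72.9, 55.5 and 34.7% in LF/LS to 54.3, 39.0 and 20.6% in HF/HS in the authors' deposited table. Both genes were chosen after their values were seen. Zscan and Zkscan genes had 8 sites at 5 genes, 3 of them higher (37.5%). No difference between these families and the Zfp genes was tested.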
